A study of Mus musculus with 57 samples.

Results

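The 10 genes described here are D cyclins and genes of cell cycle exit, out of 21118 genes in a table of ribosome-bound mRNA counts from mouse cortical astroglia. They were taken by symbol: the D cyclins Ccnd1, Ccnd2 and Ccnd3, their kinases Cdk4 and Cdk6, the inhibitors Cdkn1a, Cdkn1b and Cdkn2c, and the pocket proteins Rb1 and Rbl1. All 10 had a row in the table and none was removed by a filter.

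D cyclins bind Cdk4 or Cdk6, and the active kinase phosphorylates the pocket proteins, which hold back the E2F factors that drive genes of DNA synthesis. INK4 inhibitors such as Cdkn2c bind Cdk4 and Cdk6 directly, and CIP/KIP inhibitors such as Cdkn1a and Cdkn1b bind cyclin and kinase together. Cortical astrocytes of rodents divide locally in the early postnatal weeks and most have left the cell cycle by adulthood.

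All mice carried an L10-GFP fusion under Aldh1l1 control on a C57BL/6 background, so that tagged polysomes could be pulled from whole cortex with an antibody to GFP (translating ribosome affinity purification, TRAP). Aldh1l1 is active in astrocytes and also in radial glia, so the tag marks astroglia rather than a single mature cell type. The 53 libraries, 1 per animal, came from 6 ages: 8 at postnatal day (P) 1 (4 female, 4 male), 8 at P4 (4 female, 4 male), 12 at P7 (8 female, 4 male), 10 at P14 (5 female, 5 male), 6 at P35 (3 female, 3 male) and 9 from adults (4 female, 5 male). Each library also belongs to a numbered replicate set (1, 2, 3, 4 or 6), except for 4 P7 libraries of a second sequencing run alone. In bulk RNA of this kind, fewer cells of a type and less RNA per cell cannot be told apart.

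Total counts per library ran between 14768178 and 48541139, with a median of 24033399. Between 10085 and 18138 genes per library had 10 or more counts, the fewest in P1 female 4. Aldh1l1 itself lay between 10.05 and 422 CPM (counts divided by the scaled library total), again lowest in P1 female 4. In all, 11 libraries were doubted, some on more than one ground: in 7 of them Xist or Y-linked transcripts were higher for the sex not labelled, in 5 a letter in the description named the other sex, and 3 (P1 female 4, P7 female 40 and P14 male 4) had fewer genes with 10 counts than any library not doubted (15531 or more). All 12 astrocyte markers and all 14 neuronal markers had counts in each P1 and adult library, so detection alone does not tell astroglia from whole cortex. The neuronal markers summed to between 2567 and 12038 CPM in adults and between 2001 and 12644 CPM at P1. At P1 the median sums were 5924 CPM for neuronal and 1461 CPM for astrocyte markers. In adults they were 3721 CPM for neuronal and 16925 CPM for astrocyte markers.

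Levels of 5 of the 10 genes were lower in adults than at P1 and 1 was higher. With replicate set in the model, 8 of the 10 genes differed over the 6 ages (edgeR quasi-likelihood F test, Benjamini-Hochberg adjusted p under 0.05 over all genes), where 43.5% of all genes did. Between adults and P1, 6 of 10 passed, against 41.3% of all genes. Lower in adults were Ccnd2, Cdk4, Cdk6, Rbl1 and Cdkn1a (19.5% of all genes were lower), and Ccnd3 was higher (21.8% of all genes were). The median log2 difference, adult minus P1, was -0.52 over the 10 genes and 0.06 over all genes. In 3 genes, Ccnd2, Cdk4 and Cdk6, each of the 9 adult libraries lay below each of the 8 P1 libraries, as was so for 2.69% of all genes.

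**Figure D1:**
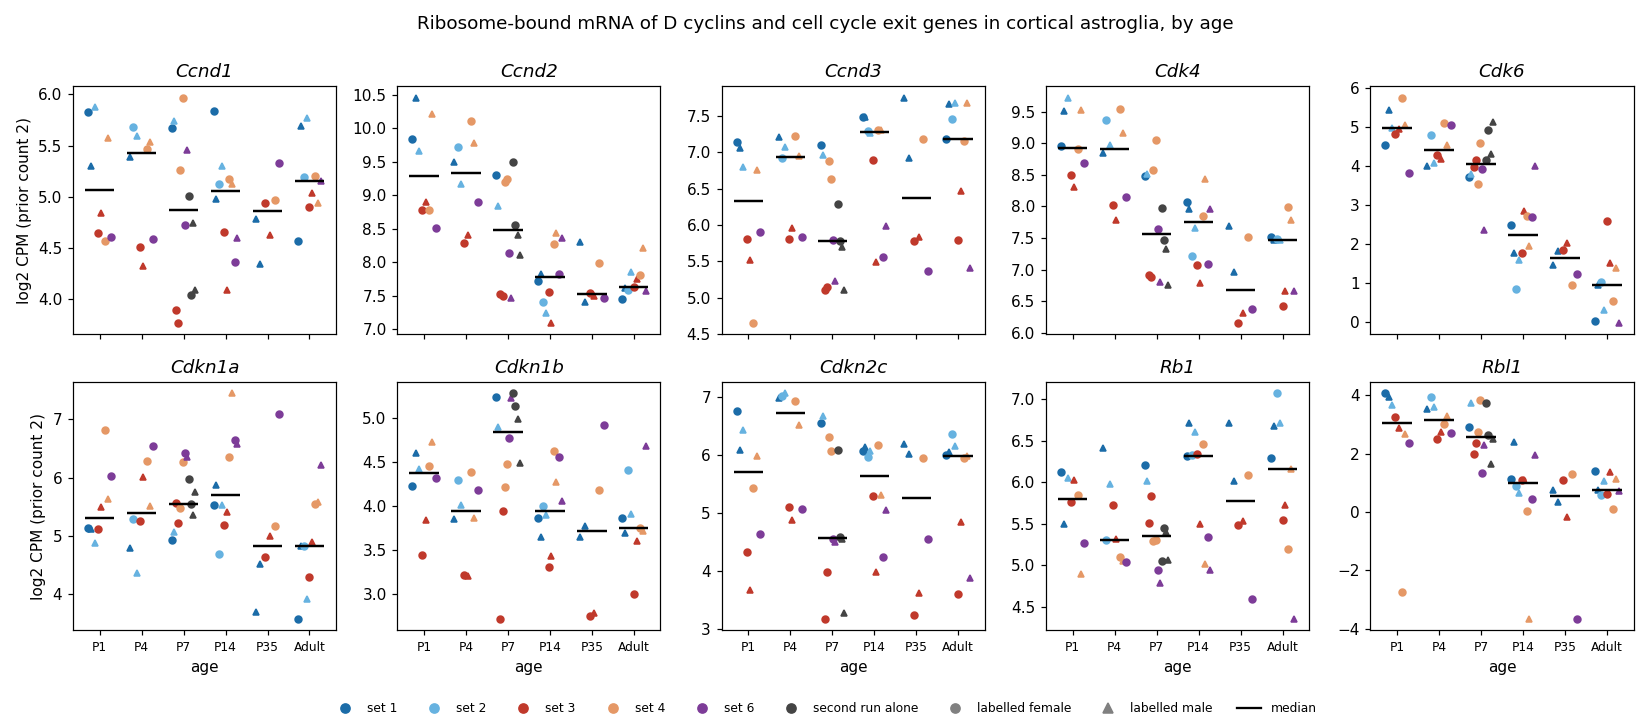
Log2 CPM (prior count of 2) of the 10 genes in each library, by age, with colour for the replicate set, circles for labelled females, triangles for labelled males and a line for the median of the age. Ccnd2, Cdk4 and Cdk6 show adult libraries that all lie below the P1 libraries, while Ccnd1 and Rb1 show no such shift and libraries of set 3 (red) lie low for Ccnd3 and Cdkn2c at most ages.

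Among the D cyclins, Ccnd2 fell, Ccnd3 rose and Ccnd1 did not pass the test. Ccnd2 is a D cyclin expressed by neural progenitors of the mouse cortex. It had a median of 645 CPM at P1 (364 to 1405), 651 CPM at P4 (312 to 1101), 357 CPM at P7 (177 to 721), 219 CPM at P14 (137 to 347), 184 CPM at P35 (170.1 to 316) and 199 CPM in adults (176 to 298). The ranges at P14, at P35 and in adults lay wholly below the lowest P1 library. Adults were 3.25-fold lower than P1, a log2 difference of -1.70 ± 0.22 (SE, adjusted p = 2.54e-08). The call over the 6 ages had an adjusted p of 2.43e-10. Among the steps between neighbouring ages, P7 minus P4 passed (log2 difference -0.87 ± 0.23, adjusted p = 0.0329). That call was lost without the 4 libraries of the second run (0.0784), without the 11 doubted libraries (0.101) and in 9 of 20 fits with 1 library left out, with adjusted p up to 0.239 (without P7 male 6).

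Ccnd3, a D cyclin that is also found in differentiated tissues, moved the other way. Its median was 83.9 CPM at P1 (25.0 to 141), 123 CPM at P4 (56.1 to 149.5), 55.0 CPM at P7 (34.2 to 138), 155 CPM at P14 (44.8 to 179), 88.8 CPM at P35 (41.3 to 216) and 145 CPM in adults (42.4 to 206). The ranges of all 6 ages overlap, with libraries of sets 3 and 6 at the low end in adults. These medians are not adjusted for set, and the ages differ in their mix of sets. With replicate set in the model, the log2 difference P7 minus P1 was -0.07 ± 0.22 (SE). Adults were 1.47-fold higher than P1 (log2 difference 0.55 ± 0.21, adjusted p = 0.0293). The call was lost without replicate set in the model (adjusted p = 0.152), and also without P1 male 2 (0.0542), P1 female 4 (0.0767), Adult female 2 (0.0562), Adult male 3 (0.0654), Adult male 4 (0.0577) or Adult female 4 (0.0771). Fits without replicate set, here and below, kept the term of the second run. Over the 6 ages the adjusted p of Ccnd3 was 0.0415. That call was lost without replicate set (0.438), without the second run (0.0727) and in 24 of 53 fits that each left out 1 library, with adjusted p up to 0.0805 (without Adult female 4).

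Ccnd1, the D cyclin that responds to growth factors in many cell types, stayed between 13.5 and 62.5 CPM over all libraries. Its median was 34.0 CPM at P1 (23.7 to 58.7), 43.0 CPM at P4 (19.98 to 51.1), 29.4 CPM at P7 (13.5 to 62.5), 33.2 CPM at P14 (16.9 to 57.0), 29.0 CPM at P35 (20.2 to 40.1) and 35.5 CPM in adults (23.7 to 54.5). Every age overlapped every other. The log2 difference, adult minus P1, was -0.06, with a 95% interval between -0.47 and 0.36 (adjusted p = 0.853), and its sign turned without P1 female 1 (0.06) or Adult female 1 (0.04).

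The makeup of D cyclin mRNA, as CPM per kb of exon, differed between ages. Lengths are those of all annotated exons of a gene merged (4709 bases for Ccnd1, 9409 for Ccnd2 and 8775 for Ccnd3). The size of each share depends on these lengths, and the lengths of the transcripts in use were not measured. Ccnd2 made up a median of 49.8% of the D cyclin signal in adults (38.1% to 62.6%), against 80.9% at P1 (76.4% to 86.3%). Ccnd3 made up 38.1% in adults (14.8% to 41.9%), against 9.85% at P1 (5.22% to 13.4%). Ccnd1 made up 17.4% in adults (10.5% to 23.1%), against 9.39% at P1 (4.83% to 11.2%). For Ccnd2 and Ccnd3 no adult library overlapped a P1 library. These shares were chosen after their values were seen and carry no test. The shares of a library add up to the whole, so a lower Ccnd2 alone makes the other shares larger. The median level of Ccnd1 was 7.54 CPM per kb in adults and 7.21 at P1. That of Ccnd3 was 16.5 CPM per kb in adults and 9.56 at P1. The summed D cyclin level was 47.9 CPM per kb in adults (32.7 to 61.6) and 86.7 CPM per kb at P1 (50.6 to 173).

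**Figure D2:**
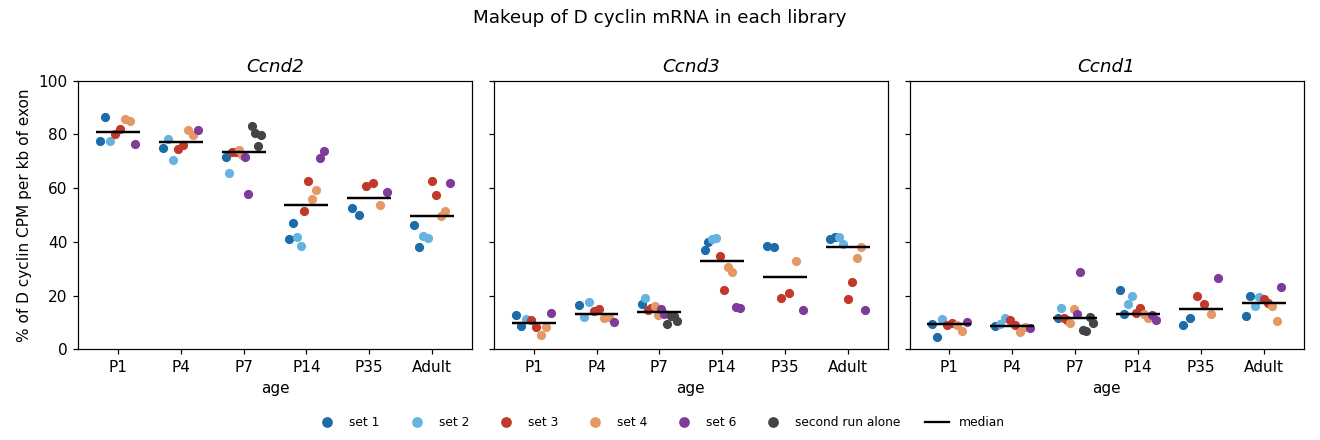
Share of Ccnd2, Ccnd3 and Ccnd1 in the summed D cyclin level (CPM per kb of exon, in percent) of each library, by age, coloured by replicate set, with a line for the median. Ccnd2 falls to a median of 49.8% in adults, against 80.9% at P1, while Ccnd3 reaches 38.1% in adults, against 9.85% at P1, and the single set 6 libraries of P35 and adults have 14.7% and 14.8% of Ccnd3. The shares of a library add up to the whole, so a lower share of one gene raises the others.

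Both D cyclin kinases fell. Cdk4 had a median of 487 CPM at P1 (316 to 843), 482 CPM at P4 (221 to 744), 189 CPM at P7 (108 to 530.0), 217 CPM at P14 (110.2 to 344), 104 CPM at P35 (71.3 to 206) and 177 CPM in adults (86.1 to 254). The highest adult library was below the lowest P1 library. Adults were 3.46-fold lower than P1 (log2 difference -1.79 ± 0.16, adjusted p = 7.00e-12), and the test over the 6 ages gave an adjusted p of 4.75e-14. P7 was 1.80-fold lower than P4 (log2 difference -0.85 ± 0.17, adjusted p = 0.00515), a call lost without P7 male 6 (0.0745). P35 was 1.58-fold lower than P14 (-0.66 ± 0.17, adjusted p = 0.0398), and that call was lost without the 11 doubted libraries (0.0747), with limma voom (0.0696) and in 10 of 16 fits with 1 library left out, with adjusted p up to 0.190 (without P35 male 10).

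Cdk6, the other kinase that D cyclins activate, had the largest difference among the 10 genes. Its median was 31.2 CPM at P1 (14.0 to 53.8), 21.3 CPM at P4 (15.8 to 34.5), 16.6 CPM at P7 (5.02 to 35.0), 4.67 CPM at P14 (1.71 to 15.9), 3.04 CPM at P35 (1.86 to 4.00) and 1.86 CPM in adults (0.900 to 5.94). Each later age had a lower median than the one before it, and the P35 and adult libraries lay below every P1 and P4 library. Adults were 15.0-fold lower than P1 (log2 difference -3.91 ± 0.36, adjusted p = 1.84e-11). The difference between P14 and P7 was -1.31 ± 0.34 (adjusted p = 0.0219). That step was lost without the 4 libraries of the second run (0.0651), without the 11 doubted libraries (0.0855) and in 5 of 22 fits with 1 library left out, most without P7 male 2 (0.227). Per kb of exon, Cdk6 was a median of 0.243% of the summed Cdk4 and Cdk6 level in adults, against 1.21% at P1, with overlapping ranges (0.119% to 1.58% and 0.786% to 2.53%).

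The promoter of Cdk4 is shown because the gene had the smallest adjusted p of the 10 genes over the 6 ages. RefSeq (GRCm38.p6) gave a promoter for 7 of the 10 genes, and the 250 bases before each start were searched on both strands for the E-box CACGTG and for the E2F motifs TTTGGCGC, TTTCGCGC, TTTCCCGC and TTTGCCGC. The Cdk4 window, chr10:127063285-127063534 on the plus strand, holds 4 E-boxes (capitals), a letter match also present at least once in 6.02% of 32851 such windows and at least 4 times in 0.0213%. Cdk6 has 1 E-box match and the other matched genes except Rbl1 have no match of either kind.
Cdk4: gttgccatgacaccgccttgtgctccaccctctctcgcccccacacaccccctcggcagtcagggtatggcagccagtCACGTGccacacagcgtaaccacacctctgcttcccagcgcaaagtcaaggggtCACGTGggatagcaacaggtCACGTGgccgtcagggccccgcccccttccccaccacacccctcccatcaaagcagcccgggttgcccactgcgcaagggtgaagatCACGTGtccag
A match of letters is a description of the window and not of a bound factor.

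Of the 3 inhibitors, Cdkn1a fell between P1 and adults, and Cdkn1b and Cdkn2c passed only over the 6 ages. Cdkn1a, an inhibitor that p53 induces, had a median of 40.0 CPM at P1 (29.4 to 113), 42.2 CPM at P4 (20.5 to 92.9), 46.8 CPM at P7 (30.5 to 86.3), 52.3 CPM at P14 (25.7 to 175), 28.4 CPM at P35 (12.8 to 137) and 28.3 CPM in adults (11.8 to 73.9). The ranges overlap throughout, and single libraries at P14 (male 4) and P35 (female 6) stand above the rest. Adults were 1.53-fold lower than P1 (log2 difference -0.62 ± 0.23, adjusted p = 0.0257). The call was lost without replicate set in the model (0.201), without the 11 doubted libraries (0.106) and with limma voom (0.0663). It was also lost without P1 male 3 (0.0511), P1 female 4 (0.0893), Adult female 1 (0.0792) or Adult female 3 (0.0588). Over the 6 ages the adjusted p was 0.0038, and 0.1501 without replicate set.

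Cdkn1b, which holds cells in rest in many lineages, had its highest median at P7. The medians were 20.6 CPM at P1 (10.8 to 26.5), 15.3 CPM at P4 (9.13 to 20.8), 28.5 CPM at P7 (6.52 to 38.8), 15.4 CPM at P14 (9.80 to 24.6), 13.1 CPM at P35 (6.66 to 30.1) and 13.4 CPM in adults (7.96 to 25.5). With replicate set in the model, the log2 difference P7 minus P1 of Cdkn1b was 0.20 ± 0.20 (SE). Its steps P7 minus P4 and P14 minus P7 did not pass (edgeR, adjusted p = 0.136 and 0.0973). Over the 6 ages its adjusted p was 0.0163. That call was lost without replicate set (0.177), without the 11 doubted libraries (0.0726), with DESeq2 size factors (0.0515) and without P7 female 10 (0.0735), P7 male 2 (0.0718) or P7 male 6 (0.0647). The adult minus P1 difference was -0.42 ± 0.19 (adjusted p = 0.0778), and it passed without the 11 doubted libraries (0.0393), Adult female 2 (0.0452) or Adult male 3 (0.0384).

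Cdkn2c, the INK4 inhibitor of the set, had its highest median at P4. The medians were 53.4 CPM at P1 (12.6 to 109), 107 CPM at P4 (29.5 to 134), 23.7 CPM at P7 (8.96 to 103), 51.1 CPM at P14 (15.7 to 72.4), 42.8 CPM at P35 (9.34 to 73.1) and 63.2 CPM in adults (12.2 to 82.4). Ranges are wide and overlap at each age, and libraries of sets 3 and 6 and of the second run were lower than those of set 1. The ages differ in their mix of sets, and these medians are not adjusted for it. With replicate set in the model, the log2 difference P7 minus P1 was -0.04 ± 0.26 (SE), and P4 minus P1 was 0.75 ± 0.26. The adjusted p over the 6 ages was 0.0157, and 0.573 without replicate set in the model. The adult minus P1 difference was -0.08, with a 95% interval between -0.58 and 0.42 (adjusted p = 0.817).

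The pocket proteins differed from each other. Rb1, the retinoblastoma protein gene, had a median of 55.7 CPM at P1 (29.7 to 69.8), 39.5 CPM at P4 (32.7 to 85.3), 40.8 CPM at P7 (27.5 to 73.8), 79.8 CPM at P14 (30.8 to 105), 55.4 CPM at P35 (24.0 to 105) and 71.6 CPM in adults (20.4 to 134). All ages overlap, with the highest medians at P14 and in adults. The adult minus P1 difference was 0.24, with a 95% interval between -0.16 and 0.63 (adjusted p = 0.347), and over the 6 ages the adjusted p was 0.183 with edgeR and 0.0450 with DESeq2.

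Rbl1, whose protein binds repressive E2F factors and is abundant in dividing cells, fell. It had a median of 8.29 CPM at P1 (0.0703 to 16.6), 8.84 CPM at P4 (5.52 to 15.3), 5.85 CPM at P7 (2.47 to 14.3), 1.91 CPM at P14 (0 to 5.24), 1.40 CPM at P35 (0 to 2.39) and 1.58 CPM in adults (0.995 to 2.55). The lowest P1 library, female 4, had 1 count and is the only P1 library that the adults overlap. P14 male 4 and P35 female 6 had 0 counts, which allows up to 0.334 and 0.174 CPM (3 counts, counting error only). Adults were 4.74-fold lower than P1 (log2 difference -2.25 ± 0.53, adjusted p = 6.75e-04), and over the 6 ages the adjusted p was 1.24e-05. P14 was 3.66-fold lower than P7 (-1.87 ± 0.52, adjusted p = 0.0352), a call lost without the 4 libraries of the second run (0.0539) and in 9 of 22 fits with 1 library left out, with adjusted p up to 0.183 (without P7 male 2).

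The promoter of Rbl1 is shown because it alone among the 7 matched genes holds an E2F motif (TTTCGCGC, in capitals, its first base 18 bases before the start), as 1.86% of the 32851 windows do. The window is chr2:157204535-157204784 on the minus strand (GRCm38.p6, RefSeq), printed along the gene.
Rbl1: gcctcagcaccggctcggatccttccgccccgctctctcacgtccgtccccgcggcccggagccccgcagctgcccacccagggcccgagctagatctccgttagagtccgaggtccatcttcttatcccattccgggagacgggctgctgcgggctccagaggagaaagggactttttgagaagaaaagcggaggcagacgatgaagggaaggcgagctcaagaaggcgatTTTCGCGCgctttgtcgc
Rbl1 levels and those of S phase genes described further on were measured in the same libraries, and binding of a factor to this window was not measured.

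**Figure D3:**
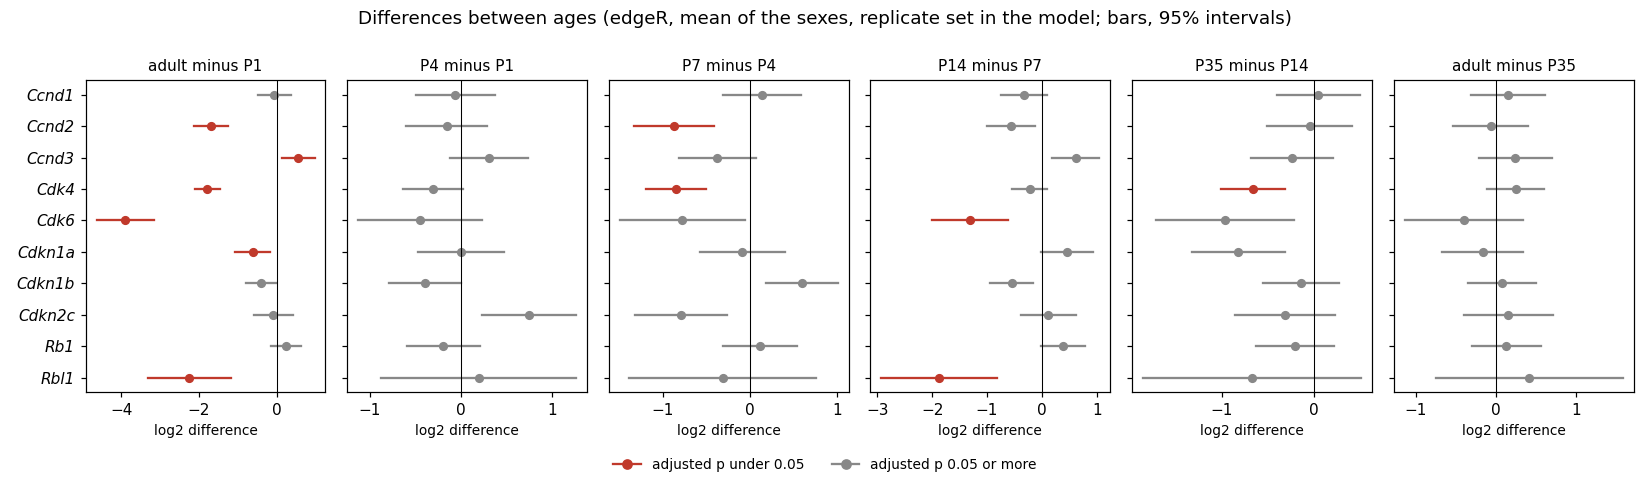
Log2 differences between ages for the 10 genes (edgeR, mean of the sexes, replicate set in the model), for adult minus P1 and for each step between neighbouring ages, with bars for 95% intervals and red for adjusted p under 0.05. Cdk6 has the largest adult minus P1 difference (-3.91), and Ccnd3 is the only gene that is higher and passes.

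By step, 0 of the 10 genes passed for P4 minus P1, where 0.44% of all genes did (1 of the 10 at an unadjusted p under 0.05, and 0 with DESeq2 or limma voom). For P7 minus P4, 2 genes passed (Ccnd2 and Cdk4, both lower at P7), where 1.67% of all genes did (0.417% lower and 1.25% higher). For P14 minus P7, 2 passed (Cdk6 and Rbl1, both lower at P14), where 3.3% of all genes did (1.65% in each direction). The all-gene calls of that step split into 349 higher and 348 lower, and into 482 higher of 750 with DESeq2 size factors. For P35 minus P14, 1 passed (Cdk4, lower at P35), where 1.15% did. For adult minus P35, edgeR called 0 of the 10 and 0 genes in all (884 genes at an unadjusted p under 0.05, none of the 10 among them, and 114 genes with DESeq2). Each of these step calls was lost without replicate set in the model. The all-gene counts moved with single libraries too: P14 minus P7 had 697 calls, but 74 without P7 male 2 and 1429 without P14 male 6. P7 minus P4 had 352, but 31 without P7 male 6 and 635 without P7 male 2. P4 minus P1 had 93, but 19 without P4 male 1 and 418 without P1 female 1. P35 minus P14 had 242, but 46 without P35 male 10 and 556 without P14 female 2. These are the lowest and highest counts with 1 library left out.

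Most of the 10 genes also differed between replicate sets. In the test of the set terms 8 genes passed (all but Cdk6 and Rbl1), where 69.1% of all genes did. Relative to set 1, set 3 was lower in 7 genes (24.8% of all genes were lower and 28.2% higher), with Cdkn2c at a log2 difference of -2.14 ± 0.23 and Ccnd3 at -1.45 ± 0.19. Set 6 passed in 6 genes (34.3% of all genes), lower in 5 (17.1%) and higher in 1 (17.2%), Cdkn1a, at 1.501 ± 0.24. The second run was lower in 5 (18.3%). Set 4 was lower in Rb1 and higher in Cdkn1a (8.3% of all genes were lower and 9.56% higher). Set 2 differed in 0 of the 10 genes by edgeR (0 at an unadjusted p under 0.05) and in 0 genes in all (1126 at an unadjusted p under 0.05).

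Markers of cell types moved with the sets. Relative to set 1, the median log2 difference of the 14 neuronal markers was 1.80 in set 3, 1.85 in set 6 and 1.72 in the second run. That of the 12 astrocyte markers was -1.53 in set 3, -2.38 in set 6 and -1.84 in the second run. Their part in the set differences of the 10 genes was not tested. Within each of the 5 sets, adult minus P1 was negative for Ccnd2, Cdk4 and Cdk6 in 5 of 5, with log2 differences between -2.61 and -0.93, between -2.24 and -1.33, and between -4.48 and -2.84. It was negative in 4 of 5 for Rbl1, for Cdkn1a and for Cdkn1b, and positive in 4 of 5 for Ccnd3. Set 4, which includes P1 female 4, gave both the exception for Rbl1 (0.64) and the largest rise of Ccnd3 (1.72). Each set holds 1 or 2 libraries at P1 and in adults, so these are values with no test.

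**Figure D4:**
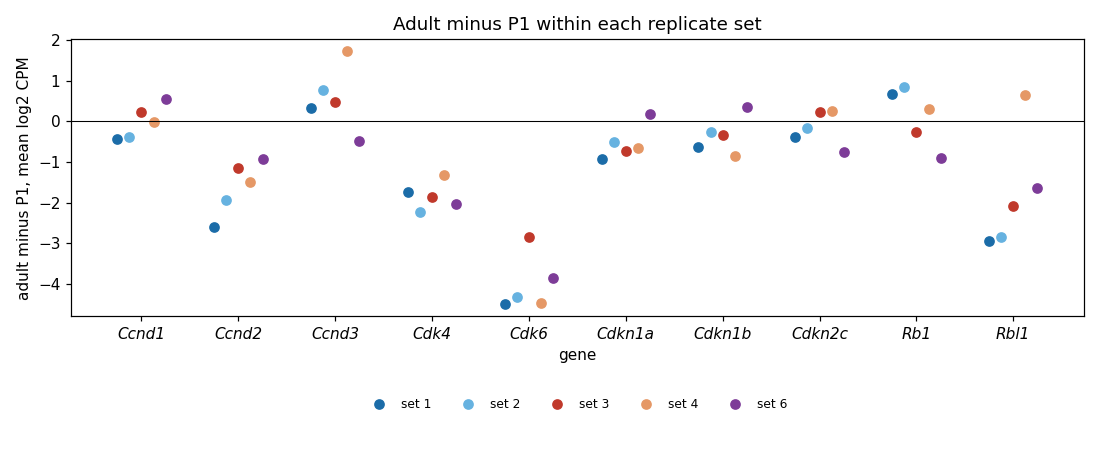
Adult minus P1 difference of mean log2 CPM within each of the 5 replicate sets, for the 10 genes, with 1 point per set. All 5 points lie below 0 for Ccnd2, Cdk4 and Cdk6, and 4 of 5 lie above 0 for Ccnd3.

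Markers of cell types also moved with age. In adults, 11 of 12 astrocyte markers were higher than at P1 (Aldoc, Glul and Gfap have the highest levels), with a median log2 difference of 2.66 and sums between 3969 and 24733 CPM in adults and between 663 and 5017 CPM at P1. Of 10 radial glia and progenitor markers 7 were lower and 1, Sox2, was higher, with a median of -2.97. Their sums lay between 499.7 and 2881 CPM in adults and between 5208 and 21067 CPM at P1, and Fabp7, a fatty acid binding protein of radial glia, led them. All 9 myelin markers were higher in adults (sums between 796 and 2431 CPM, against 109 to 289 CPM at P1, where Opalin was at 0 in 2 libraries and Ermn, Mag and Mog in 1 each). Among 14 neuronal markers 8 were higher and 5 lower, the lower ones being Dcx, Tubb3, Stmn2, Neurod6 and Gap43 of young neurons. Microglial markers (3 of 7 higher, sums between 26.9 and 60.8 CPM in adults and between 9.49 and 33.1 CPM at P1), oligodendrocyte precursor markers (2 higher and 2 lower of 6) and endothelial and mural markers (2 of 8 lower) were also counted. The part of any of these in the differences of the 10 genes was not tested.

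Between the labelled sexes, edgeR called 0 of the 10 genes in the mean over ages, where 0.0284% of all genes passed (none of the 10 at an unadjusted p under 0.05, and 0 with DESeq2). The log2 differences, female minus male, lay between -0.06 (Ccnd2) and 0.16 (Cdkn2c). At single ages 0 of the 10 passed either, where 0% of all genes did, and 2 had an unadjusted p under 0.05. Ccnd2 at P1 averaged 540.3 ± 254 CPM in females and 971 ± 410.1 CPM in males (SD, n = 4 each; log2 difference -0.72 ± 0.31, adjusted p = 0.651). Cdk4 at P7 averaged 267 ± 145 CPM in 8 females and 186 ± 121 CPM in 4 males (0.43 ± 0.21, adjusted p = 1). In the test of whether the age course differs between the sexes, edgeR called 0 of the 10 and 0% of all genes (0 of the 10 and 778 genes at an unadjusted p under 0.05, and 2 genes with DESeq2). The doubted sex labels touch the means over ages, the test of the age course and the P7 values. In no P1 library were Xist or Y-linked transcripts higher for the sex not labelled, and no description letter there named the other sex. In P1 female 4 neither kind of transcript reached 1 CPM.

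The wider machinery of G1 and S phase was read from 8 lists holding 75 genes, of which 74 were in the table (Cdkn2a was not analysed here). Between adults and P1, 13 of the 74 were higher (21.8% of all genes were) and 49 lower (19.5% of all genes were), with a median log2 difference of -1.51, beside 0.06 over all genes. These lists were chosen with earlier results known, and the counts carry no test of the lists.

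Among the partners of G1, 4 of 7 were lower and 1 was higher. Ccna2, the cyclin of S phase, averaged 1.57 ± 0.75 CPM in 9 adults and 55.7 ± 35.7 CPM in 8 P1 libraries (log2 difference -5.11 ± 0.52, adjusted p = 1.69e-10). Cdk2, the kinase of cyclins E and A, differed by -2.12 ± 0.44, Cdc25a, a phosphatase that activates it, by -1.66 ± 0.32, and the cyclin E gene Ccne2 by -1.06 ± 0.39. The third pocket protein, Rbl2, was higher in adults (0.61 ± 0.21, adjusted p = 0.0172). It averaged 58.8 ± 25.0 CPM in adults and 36.5 ± 14.3 CPM at P1. Cdk7 (-0.08) and Ccne1 (0.07) did not pass. Of the inhibitor relatives, 3 of 4 were lower: Cdkn1c, a KIP inhibitor (-2.05 ± 0.29), the INK4 gene Cdkn2b (-1.49 ± 0.61, adjusted p = 0.0478) and Cdkn3 (-4.52 ± 0.59), which encodes a phosphatase of CDKs and not an INK4 or KIP protein. The INK4 gene Cdkn2d had 0.27 ± 0.13 (adjusted p = 0.107).

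Of the E2F and DP factors, 4 of 10 were lower and 1 was higher. E2f7 (-5.93 ± 1.00) and E2f8 (-6.26 ± 1.06), which encode repressors made in S phase, were at 0 in 4 and 5 of the 9 adult libraries. E2f2 (-2.13 ± 0.74) and the DP partner Tfdp1 (-1.37 ± 0.29) were lower too, and E2f3 was higher (0.86 ± 0.33, adjusted p = 0.0302). In the DREAM and MYB complexes, which bind cell cycle promoters, the subunits split: Mybl2 (-4.99 ± 0.71), Foxm1 (-3.30 ± 0.51), Rbbp4 (-1.08 ± 0.20) and Lin9 (-1.56 ± 0.32) were lower, and Lin52 (0.99 ± 0.21) and Lin37 (0.73 ± 0.23) were higher, out of 7. Mybl2 and Foxm1 encode activators of the mitotic programme, and the others named belong to the MuvB core that activating and repressive complexes share.

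Genes that control the turnover of cyclins and inhibitors were 5 lower and 3 higher of 9. The lower ones included Cks1b (-3.30 ± 0.27) and Skp2 (-1.91 ± 0.48), which act together to mark Cdkn1b protein for destruction, and the APC/C activators Cdc20 (-4.14 ± 0.52) and Fzr1 (-0.75 ± 0.17). The higher ones were Usp2 (2.26 ± 0.21), a ubiquitin protease, Fbxw7 (0.92 ± 0.14), which targets cyclin E, and Ambra1 (0.44 ± 0.17, adjusted p = 0.0396), which targets D cyclins.

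S phase and mitotic genes were lower in adults as well. In adults, 15 of 16 S phase E2F targets were lower than at P1, with a median log2 difference of -2.36. The helicase subunits Mcm6 (-2.76 ± 0.33) and Mcm7 (-2.34 ± 0.29), the nucleotide reductase subunit Rrm2 (-3.50 ± 0.47) and the sliding clamp Pcna (-0.88 ± 0.14) had the smallest adjusted p. Ccne1, also counted above, was the 1 that did not pass. All 10 mitotic genes were lower (median -4.91), among them Cdk1 (-5.78 ± 0.59), Birc5 (-4.01 ± 0.52), Aurkb (-5.39 ± 0.71) and Plk1 (-5.01 ± 0.67). The mitotic genes summed to between 6.76 and 23.8 CPM in adults and between 95.9 and 414 CPM at P1.

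Of 12 genes in the list of p53 and stress targets, 6 were higher and 4 lower (median 0.48). The list also holds Trp53, the gene of p53, which induces Cdkn1a. Zmat3 (1.63 ± 0.34), Phlda3 (1.06 ± 0.29), Ccng1 (0.71 ± 0.22) and Sesn1 (0.68 ± 0.20) were higher, while Trp53 itself (-0.84 ± 0.17), its inhibitor Mdm2 (-0.96 ± 0.26), the death gene Bax (-0.59 ± 0.17) and Eda2r (-4.12 ± 1.18, at 0 in 6 of 9 adult libraries) were lower.

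**Figure D5:**
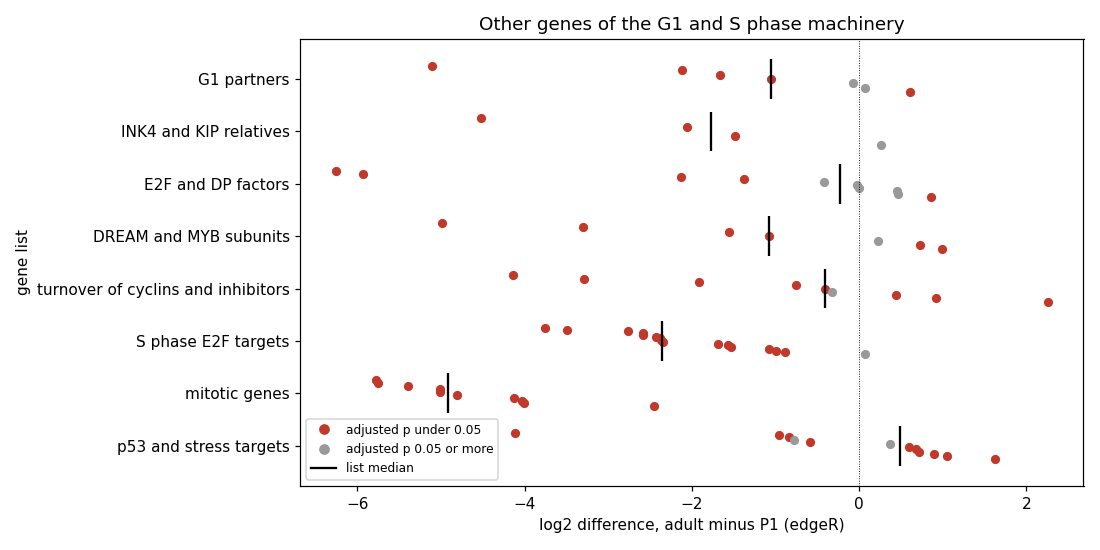
Log2 difference, adult minus P1, of the genes of 8 lists around the D cyclins (edgeR), with 1 point per gene, red for adjusted p under 0.05, and a bar for the median of the list. All 10 mitotic genes and 15 of 16 S phase targets lie below 0 and pass, while p53 and stress targets lie on both sides.

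Levels between the 10 genes were compared per kb of exon, with all annotated exons of a gene merged, and their order depends on these lengths. At P1, Cdk4 was highest with a median of 150.0 CPM per kb, then Ccnd2 with 68.5, and Rbl1 was lowest with 1.38, below Cdk6 with 2.23. In adults Cdk4 was still highest with 54.5 CPM per kb, then Cdkn2c with 23.5 and Ccnd2 with 21.1, whose ranges overlap (4.52 to 30.7 and 18.7 to 31.6), and Cdk6 was lowest with 0.133, below Rbl1 with 0.264. Reads of neighbours may enter some of these values, since the strand setting of the counting is not given in the sources used here. Exons of 7 of the 10 genes overlap an antisense gene (in 641 bases for Cdk4 with Tspan31, and 896 bases for Rb1 with Lpar6 and Rcbtb2), and those of Cdkn1b, Cdkn2c and Rbl1 overlap none. Ccnd3 also has a pseudogene row, Ccnd3-ps, at a mean of 1.96 CPM, so reads could be split between the 2.

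The genes whose log2 CPM followed each of 8 members most closely over the 53 libraries were named among 11102 genes with a mean of at least 5 CPM. These are descriptions over libraries that share ages, sets and depth. Ccnd2 was followed by the histone gene Hist1h2ao (Pearson r = 0.89), Cdca3, a gene of mitotic entry (0.89), and the histone gene Hist1h2ap (0.88). Rbl1 was followed by Mdm1 (0.89) and Asf1b, a histone chaperone (0.88). Ccnd3 was followed by Sorbs3 and Abhd4 (0.96 each). Cdkn2c was followed by Gnai2 (0.93), Tnfaip8 (0.93) and Alg14 (0.93), and Rb1 by Slc35a5 (0.84), Nadk2 (0.82) and Dbt (0.81). Cdkn1a was followed by Fam57b (0.85), Lrrc73 (0.83) and Thra, a thyroid hormone receptor (0.82). Cdkn1b had the lowest likeness, to Hist1h1e (0.71), Polr3gl (0.69) and Fam220a (0.69), and Ccnd1 was followed by Nelfe (0.78), Zfp664 (0.76) and Tsen15 (0.76).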

How the data were processed

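Whole-number counts per gene, not normalized, were deposited by the authors in 1 table of 21118 genes and 53 libraries. The submitters' processing notes name CASAVA, featureCounts, HISAT2 and SAMtools, without versions, and the build GRCm38.p5. Strand was marked in the libraries, per the labels' protocols. Whether counting used strand, and which annotation, was not given in the sources used here. No row sums to under 50 counts. According to the labels, 4 animals of P7 had 2 sequencing runs, and each of them has 1 column. These columns are deep: P7 female 10 has 42222297 counts, P7 male 2 44173412, P7 male 6 44639966 and P7 female 6 48541139. All 4 P7 males are among these or are of the second run alone, and no library of another age is. The fit without the 4 libraries of the second run kept these columns. The part of the run in the steps to and from P7 was not tested.

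From the counts, edgeR 4.0.16 in R 4.3.3 (TMM scaling, robust quasi-likelihood F test) fitted the 12 groups of sex and age with the replicate set as a term, leaving 36 residual degrees of freedom, and p-values were adjusted (Benjamini-Hochberg) over 21118 genes. The labels tie each library to its own animal. The set is the first digit of the number that ends the library name, and the second run alone is a set of its own. All libraries of the second run alone are of P7, so their term takes up their mean level. They enter tests of P7 against other ages only through the sex difference and the spread, but count fully in the P7 medians. CPM are counts on TMM-scaled totals, and log2 CPM has a prior count of 2. Medians and ranges of CPM by age are not adjusted for replicate set. Values per kb use the merged exons of all GENCODE M21 transcripts of a gene on GRCm38, so levels and shares between genes depend on these lengths. The fit was also run on simulated counts with a common spread for all genes and no set differences, so that run does not test the set term. Floors of 3 counts cover counting error only. The intervals of log2 differences rest on the standard errors of the edgeR fit, which include the spread between libraries. Alternatives were limma 3.58.1 (voom), DESeq2 1.42.0, its size factors and a filter of 1 CPM in 8 libraries. Others had no set term but that of the second run, or left libraries out.

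The members and lists were chosen with earlier results of these data known. All 10 members are named. Of each pathway list up to 4 genes in each direction are named by the smallest adjusted p (all of G1 partners and of INK4 and KIP relatives), of each marker list up to 3 by level, and for the cyclins, inhibitors and pocket proteins the 3 genes of highest Pearson correlation, predicted genes left out (2 of these genes are not reported here). Markers of young neurons, Sox2 and genes at 0 were named after their values were seen.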

Additional observations from a re-analysis of the deposited data

Results flagged for a closer look

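Of 100 groups (10 genes in each sex and age with 4 to 10 libraries), 5 hold a library far from the others of its group, and chance flags about 1 in 20 groups. P1 female 1 had 56.6 CPM of Ccnd1, where the other 3 libraries had 23.7 to 25.0, and 918 CPM of Ccnd2, where the others had 364 to 440. P7 male 2, an animal sequenced in 2 runs, had 103 CPM of Cdkn2c, where the other 3 had 9.63 to 23.3, of which 2 come from the second run alone and 1 from set 6. Adult male 60, a doubted library of set 6, had 25.5 CPM of Cdkn1b, where the other 4 had 12.1 to 15.0. P14 female 6, also of set 6, had 40.4 CPM of Rb1, where the other 4 had 79.5 to 87.9.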

How the results depend on the processing

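The adult minus P1 calls of Ccnd2, Cdk4, Cdk6 and Rbl1, and their calls over the 6 ages, held in all 7 alternatives and in all fits with 1 library left out. Without the replicate block (no set term but that of the second run), 4 of the 10 genes passed over the 6 ages (8 with it). In that fit 0 passed for P7 minus P4, 0 for P14 minus P7 and 0 for P35 minus P14. The sets share only a number between ages. Libraries of the same numbered set and different groups had a mean correlation of 0.347 in their deviations from the group means (219 pairs, -0.147 to 0.714). All other pairs of different groups, those within the second run among them, had a mean of -0.0702. Of the 49 libraries of numbered sets, 40 correlated best with one of their own set. Without the 4 libraries of the second run 1 gene passed for P7 minus P4 and 0 for P14 minus P7. Without the 11 doubted libraries 1, 1 and 0 passed for P7 minus P4, P14 minus P7 and P35 minus P14. For P35 minus P14, DESeq2 called 2 and limma voom 0. The causes were not tested. With 1 library left out, counts ran from 6 to 8 over the 6 ages, 4 to 6 for adult minus P1, 0 to 3 for P7 minus P4, 0 to 3 for P14 minus P7, 0 to 1 for P35 minus P14 and 57 to 65 among the 74 pathway genes. Ccnd1 alone changed sign in adult minus P1: with 1 library left out its log2 difference ran from -0.180 to 0.0567, the positive values being 0.0567 without P1 female 1 and 0.0393 without Adult female 1. Over all genes, the calls over the 6 ages fell to 5248 without the block, against 9190. For P4 minus P1 (93 calls) DESeq2 gave 670, limma voom 159, the fit without the 11 libraries 218 and the fit without the block 0. For P7 minus P4 (352) DESeq2 gave 912 and the fit without the block 32. For P14 minus P7 (697) these gave 1587 and 4, and the fit without the second run 361. For P35 minus P14 (242) they gave 778 and 5, and the fit without the 11 libraries 437. For the sexes (6) DESeq2 gave 103. Rbl1 in P14 male 4 and P35 female 6 had 0 counts, which allows levels up to 0.334 and 0.174 CPM there (3 counts, counting error only).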
